A study of Mus musculus with 20 samples.

Results

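Cytochrome P450 genes encode haem enzymes that insert an oxygen atom into drugs, fatty acids, sterols and vitamins, and 28 of them were measured here in breast tumours of the mouse. The 28 are the genes whose symbol starts with Cyp and a digit in the deposited table, out of 15465 genes that carried a symbol and breast cancer values; 3 further such genes (Cyp2f2, Cyp26b1 and Cyp51) were set aside by the choice of members. The tumours derived from 4T1, an established mammary carcinoma line that spreads to the lung, and were sampled at 28 days from an orthotopic model. There were 4 primary tumours and 4 lung metastases, taken from the same 4 mice, and no allele, drug or other agent was named for either group. The line is 1 source of tumour cells, each library is 1 piece of bulk tissue, and the series compares primary with metastatic tumours. Pancreatic tumours of the same series were not used here.

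Most P450 enzymes of the endoplasmic reticulum receive electrons from P450 oxidoreductase (Por) and cytochrome b5, whereas mitochondrial members receive them from ferredoxin. Families Cyp1 to Cyp3 are best known for clearing foreign chemicals, family Cyp4 for hydroxylating fatty acids and leukotrienes at the tail of the chain, and the remaining families for making or degrading bile acids, steroid hormones, vitamin D and retinoic acid. In the lung, P450 enzymes are abundant in the club cells of the airway lining, where some of them turn inhaled compounds into toxic products.

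Levels are given as normalised read counts, that is, reads of a gene divided by a scaled library total, and all 8 libraries share that scale. Reads of the 15465 genes numbered 15447918 to 28995834 per library, fewest in lung metastasis 3, and a single read was worth 0.0337 to 0.0676. Fold changes were tested with limma on log2(value + 1) over 14003 genes, with calls made where the Benjamini-Hochberg adjusted p was under 0.05. Of these genes 9.13% were called in either direction, 1005 (7.18%) higher in lung metastases and 274 (1.96%) lower. A list of epithelial markers chosen for carcinoma cells was read in both groups. Its 8 genes, Krt8, Krt18 and Epcam among them, summed to between 793 and 3047 in lung metastases and between 1321 and 2637 in primary tumours. The lowest sum was that of lung metastasis 3. Krt19 was the 1 gene of the list that was called, higher in metastases (123 ± 48.0 against 14.1 ± 5.72, SD, n = 4). Lung tissue was also present in the metastasis pieces: alveolar type 2 markers (7 of 8 called higher) summed to 4053 to 12676 against 91.5 to 113, and club cell markers (5 of 6) to 2209 to 21281 against 2.5 to 8.13. Most of the alveolar type 2 sum in primary tumours was Abca3 (87.8 to 99.2), the marker that was not called. The part of lung epithelium in the carcinoma list sums was not tested. In bulk tissue, fewer cells of a type and less RNA per cell cannot be told apart.

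Of the 28 P450 genes 21 were abundant enough to be tested, reaching 1 or more in 4 or more of the libraries. Cyp2b10, Cyp4b1, Cyp2s1 and Cyp4f18 rose in lung metastases, and 0 of the 21 fell, where limma gave 1 gene with a negative change and an unadjusted p under 0.05; over all genes tested 7.18% were called higher and 1.96% lower. DESeq2 and edgeR also called 0 members lower. The 4 were called under each of the 19 alternative analyses. The median log2 change of the 21 was 0.04, beside -0.06 over all genes tested, so the middle of the family lay close to the middle of all genes. Of the tested members 1, Cyp2b10, passed the filter through the lung metastases alone, so its direction followed from the filter and its call is a description.

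**Figure D1:**
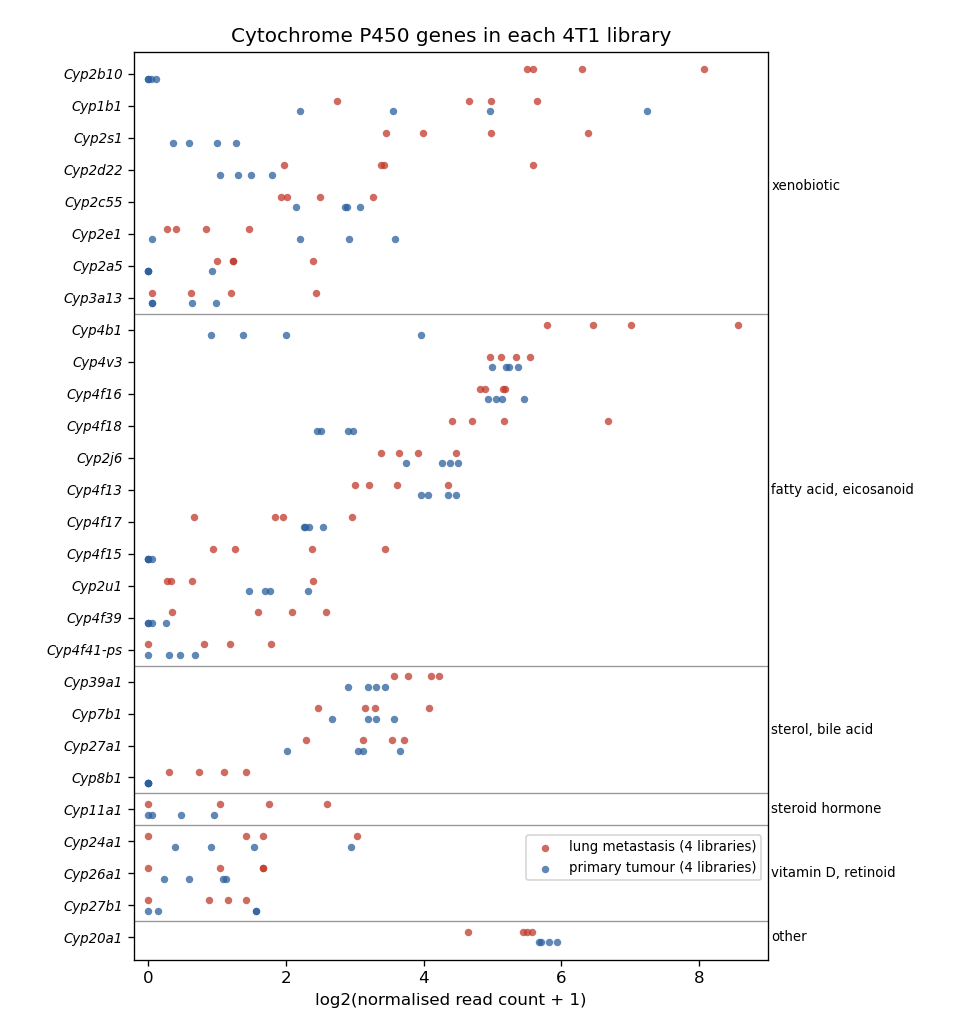
Each point is 1 library; the horizontal axis is log2(normalised read count + 1), and the 28 genes are grouped by the role of their family and ordered by mean level. Lung metastases (red) stood apart from primary tumours (blue) for Cyp2b10, Cyp2s1, Cyp4b1 and Cyp4f18, while the colours mixed for Cyp4v3, Cyp4f16 and Cyp1b1.

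Cyp2b10, a drug-clearing enzyme known for induction by phenobarbital in the liver, was close to absent from the primary tumours and plentiful in the metastases. Its normalised read count was 47.0, 77.8, 267 and 44.2 in lung metastases 1 to 4 and 0, 0.0789, 0.0337 and 0 in the primary tumours of the same mice. The primary values rest on 3 reads in all 4 libraries together, against 8375 reads in the metastases. The ratio of the pooled counts was 3295 (95% exact interval 1127 to 15979, counting error only). It was 2077 without lung metastasis 3 and 7576 without primary tumour 2, which held 2 of the 3 reads. On the log2(value + 1) scale the change was 6.32 (SE 0.50, adjusted p = 6.48e-05), higher in 4 of 4 mice, with no overlap between groups. Cyp2b10 met the filter through the metastases alone, so it had to be higher there, and these values are a description only. With no filter, under which 6.9% of genes were called higher, its adjusted p by limma was 5.51e-05. Every deposited row had a value above 1 in some library, which Cyp2b10 reached in metastases alone. That p value is therefore a description too.

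Cyp4b1, a P450 of lung that hydroxylates fatty acids and activates plant toxins such as ipomeanol, had the highest mean per length of all members in the metastases. It stood at 128, 87.3, 378 and 54.6 in lung metastases 1 to 4 against 3.02, 14.6, 0.877 and 1.59 in the matched primary tumours. Every metastasis lay above every primary tumour, and primary tumour 2 was the highest of its group. The means differed 32.4-fold (162 ± 147 against 5.01 ± 6.43, SD, n = 4; log2 change 4.90, SE 0.70, adjusted p = 0.00165). Within mice the ratio ran from 6.00 in mouse 2 to 431 in mouse 3. The fold of the means was 88.7 without primary tumour 2 and 18 without lung metastasis 3.

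Cyp2s1, an enzyme of airway and gut lining that responds to dioxin through the aryl hydrocarbon receptor, stood at 30.6, 14.9, 83.0 and 9.96 in lung metastases 1 to 4. In the primary tumours it stood at 0.993, 1.42, 0.506 and 0.282. The lowest metastasis was above the highest primary tumour, and the log2 change was 3.90 (SE 0.56, adjusted p = 0.00175). The means differed 43.3-fold, and 23.1-fold without lung metastasis 3. Cyp2s1 shared 0% of its transcript's 50-base words with other Cyp transcripts, Cyp4f18 0.378%, Cyp2b10 7.7% (most of them with Cyp2b13) and Cyp4b1 8.26% (the largest part with its pseudogene Cyp4b1-ps2), so some reads of the last pair could come from relatives.

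Cyp4f18, which inactivates the chemoattractant leukotriene B4 in mouse neutrophils, differed from the other members that rose in having a steady level in primary tumours. It stood at 4.45, 6.86, 6.44 and 4.68 in primary tumours 1 to 4 and at 35.0, 25.2, 102 and 20.4 in the metastases. The groups did not overlap, and the log2 change was 2.54 (SE 0.44, adjusted p = 0.0051). The means differed 8.12-fold, and 4.79-fold without lung metastasis 3. Neutrophil markers stood higher in the same libraries: 9 of 10 were called higher, and their sum was 7520 to 28976 in metastases against 212 to 1190 in primary tumours. The part of neutrophil content in the Cyp4f18 result was not tested.

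**Figure D2:**
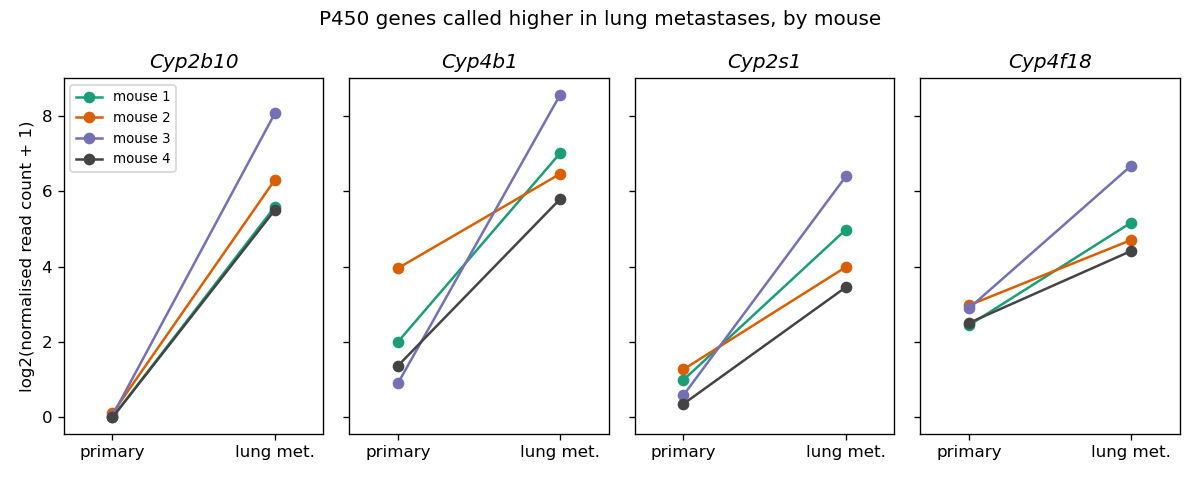
Lines join the primary tumour and the lung metastasis of each of the 4 mice; the vertical axis is log2(normalised read count + 1). All 4 genes were higher in the metastasis of every mouse, and mouse 3 (lung metastasis 3) held the highest value of each.

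Upstream sequences of these 4 genes are shown because they rose together; they come from RefSeq (build GRCm38.p6, whereas the series was aligned to mm9), whose table matched 21 of the 28 members. Each line holds the 250 bases before the start site, 5′ to 3′ on the strand of the gene, with motif matches in capitals. Cyp2b10 and Cyp2s1 are neighbours on chromosome 7, with 0 protein-coding genes between them. The windows are chr7:25897408-25897657 (+ strand) for Cyp2b10, chr7:25816526-25816775 (- strand) for Cyp2s1, chr4:115647722-115647971 (- strand) for Cyp4b1 and chr8:72009627-72009876 (- strand) for Cyp4f18.
Cyp2b10: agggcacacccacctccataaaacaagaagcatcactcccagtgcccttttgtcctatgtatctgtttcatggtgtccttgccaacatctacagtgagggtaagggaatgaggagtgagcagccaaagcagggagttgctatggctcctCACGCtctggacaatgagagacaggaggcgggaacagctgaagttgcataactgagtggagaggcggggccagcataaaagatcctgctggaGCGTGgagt
Cyp2s1: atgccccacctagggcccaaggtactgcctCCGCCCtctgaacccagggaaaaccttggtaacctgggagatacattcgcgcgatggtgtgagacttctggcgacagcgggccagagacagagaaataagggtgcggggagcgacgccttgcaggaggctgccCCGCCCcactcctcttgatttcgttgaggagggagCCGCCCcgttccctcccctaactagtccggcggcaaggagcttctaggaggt
Cyp4b1: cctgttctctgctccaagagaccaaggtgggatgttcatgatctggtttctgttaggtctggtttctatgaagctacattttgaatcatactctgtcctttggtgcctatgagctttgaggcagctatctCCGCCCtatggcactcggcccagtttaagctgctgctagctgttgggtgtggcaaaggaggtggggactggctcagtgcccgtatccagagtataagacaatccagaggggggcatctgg
Cyp4f18: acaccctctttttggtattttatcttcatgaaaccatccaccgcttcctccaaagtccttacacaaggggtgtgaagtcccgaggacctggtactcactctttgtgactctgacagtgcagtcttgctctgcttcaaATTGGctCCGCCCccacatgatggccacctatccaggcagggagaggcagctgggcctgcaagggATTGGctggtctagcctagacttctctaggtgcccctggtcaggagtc

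The motifs searched, on both strands, were GCGTG (core of the aryl hydrocarbon receptor site), AGGTCA (nuclear receptor half-site), CAAGTG (NKX2-1), TGTTTAC (forkhead), TATAAA (a core promoter element), GGGCGG (GC box) and CCAAT. Cyp2b10 held GCGTG at 101 and 9 bases before the start, a motif found in 28.2% of all 32851 promoter windows of that length. GGGCGG, found in 32.7% of all windows, lay 220, 87 and 52 bases before the start of Cyp2s1, 120 before that of Cyp4b1 and 106 before that of Cyp4f18. CCAAT, found in 33.8% of windows, lay 113 and 48 bases before the Cyp4f18 start. No motif of the 7 was held by all 4 windows, and AGGTCA (14% of all windows), CAAGTG (11.6%), TGTTTAC (3.17%) and TATAAA (12.4%) had no match in them.

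Among the other members of the xenobiotic families Cyp2d22, a close relative of the human drug enzyme of family 2D, came nearest to the threshold. It stood at 9.41, 9.71, 47.1 and 2.94 in lung metastases 1 to 4 against 2.46, 1.46, 1.82 and 1.06 in primary tumours, with no overlap between groups. The log2 change was 2.18 (SE 0.62, adjusted p = 0.0557). Cyp2d22 passed with the mouse as a replicate block (adjusted p = 0.0388), with edgeR (0.0337), DESeq2 (8.28e-05), array weights (0.00287) or a pseudocount of 0.1 (0.0476), and without lung metastasis 3 (0.0342) or 4 (0.0105); over its 18 alternatives the adjusted p ran from 8.28e-05 to 0.154.

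Cyp1b1, an oestrogen-hydroxylating enzyme induced through the aryl hydrocarbon receptor, varied widely between animals in both tissues. It stood at 49.1, 30.6, 5.68 and 24.4 in lung metastases 1 to 4 and at 3.62, 150, 10.8 and 30.2 in primary tumours 1 to 4. Primary tumour 2 held the highest value and primary tumour 1 the lowest, so the groups overlapped throughout (log2 change 0.02, SE 0.96, adjusted p = 0.994). Marker sums of primary tumour 2 stood apart from the other primary tumours in both directions. It had the lowest fibroblast sum of all libraries (826, against 2348 to 2599 in the other primary tumours) and the lowest macrophage sum of the primary tumours (1321, against 2781 to 3029). The fibroblast list went both ways: Pdgfra (205, against 91.1 to 153) and Pdgfrb (68.8, against 29.6 to 44.6) were the highest of the primary tumours. Its remaining genes, the collagen genes and Postn among them, were the lowest. The endothelial sum (816.5, against 240 to 342), neutrophil sum (1190, against 212 to 387) and alveolar type 1 sum (253, against 76.8 to 141) of primary tumour 2 were the highest of the primary tumours. Most of that alveolar type 1 sum was Cav1 (219, against 50.8 to 123). Pdpn was also highest there (23.1, against 5.95 to 7.89), while Hopx (1.30) and Rtkn2 (2.68) were the lowest of the primary tumours. Ager, Aqp5 and Clic5 lay within the range of the other primary tumours. Whether these differences bear on Cyp1b1 was not tested.

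Cyp2e1, the ethanol-oxidising P450 of liver, was the member with the most negative change. It stood at 11.0, 3.59, 6.57 and 0.0352 in primary tumours 1 to 4 and at 0.791, 0.320, 1.76 and 0.210 in lung metastases. The level was lower in the metastasis of mice 1 to 3 and higher in that of mouse 4, and the change did not pass (log2 change -1.44, SE 0.67, adjusted p = 0.229). It passed without primary tumour 4 (adjusted p = 0.027; 0.027 to 0.471 over its 18 alternatives). The fat-cell hormone gene Adipoq was listed at 12.99, 0, 4.01 and 0.282 in primary tumours 1 to 4 and at 0 in all lung metastases. Of 5 tested adipocyte markers 1, Fabp4, was called lower, and the sum of the 7 measured markers overlapped between groups (67.4 to 263 in metastases, 37.2 to 345 in primary tumours). Most of the metastasis sum was Lpl, the lipoprotein lipase gene (54.4 to 247 there, 7.14 to 62.5 in primary tumours). The other 6 markers, split off after their values were seen, summed to 16.4, 5.05, 16.8 and 12.98 in metastases against 283, 58.4, 139 and 19.4 in primary tumours, without overlap. Singly, Retn (0.320 to 6.15 in metastases, 0.599 to 11.8 in primary tumours) and Cidec (0 to 6.63, 0 to 13.6) overlapped, while Cfd and Fabp4 did not. The primary order 1, 3, 2, 4 of this sum was that of Cyp2e1. The metastasis order was 3, 1, 4, 2 for the sum and 3, 1, 2, 4 for Cyp2e1. The part of fat tissue in the Cyp2e1 values was not tested. Alb, the defining product of hepatocytes, stood at 1.21 to 5.5 in metastases and 1.73 to 2.26 in primary tumours; 3 of the 12 hepatocyte markers were in the table, and 0 of the 2 tested were called by limma, edgeR or DESeq2, with 1 at an unadjusted p under 0.05.

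Cyp2c55, an arachidonic acid hydroxylase known from gut, stood at 2.81 to 8.65 in metastases and 3.42 to 7.47 in primary tumours (adjusted p = 0.644). Cyp2a5, which oxidises coumarin and nicotine, and Cyp3a13, the gut member of the main drug-clearing family, were too low for the test. Cyp2a5 stood at 1.34, 0.996, 4.26 and 1.34 in metastases and at 0, 0.907, 0 and 0 in primary tumours, without overlap. When the filter was loosened to 0.25, which it too met through the metastases, its adjusted p was 0.079. Of the 50-base words of its transcript 37% recur in other Cyp genes, most of them in Cyp2a4, so its reads cannot be fully told from theirs. Cyp3a13 ran from 0.042 to 4.39 in metastases and from 0.0352 to 0.978 in primary tumours.

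**Figure D3:**
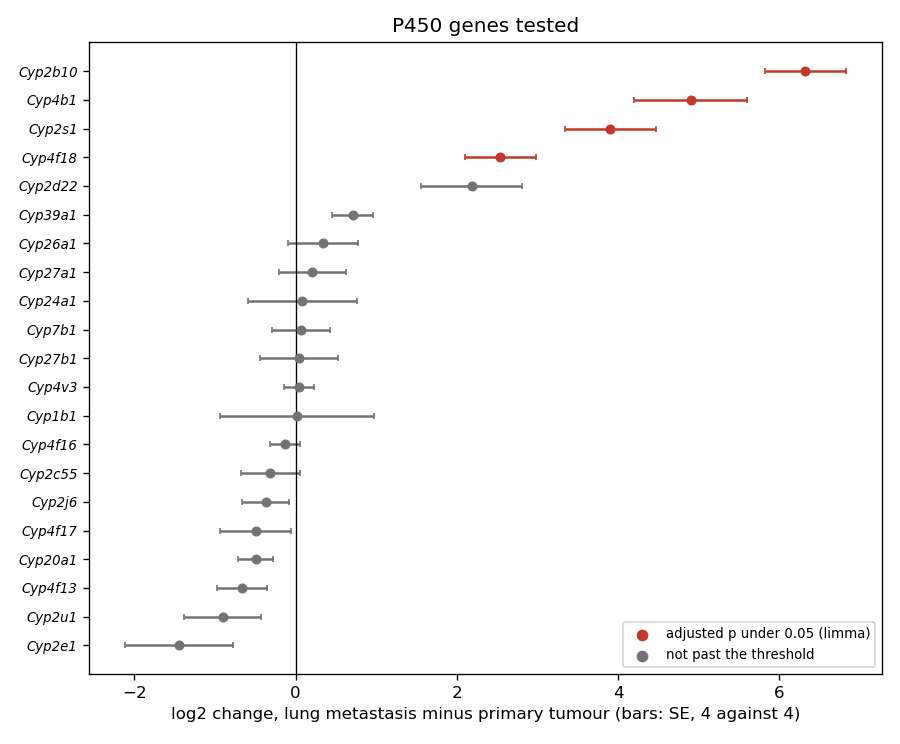
Points give the log2 change of the 21 tested P450 genes, lung metastasis minus primary tumour, on the log2(value + 1) scale, and bars give the SE (4 libraries against 4). Red marks an adjusted p under 0.05; the 4 red genes run from 2.54 (Cyp4f18) to 6.32 (Cyp2b10), and all grey genes except Cyp2d22 lie between -1.44 and 0.71.

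The Cyp4f genes other than Cyp4f18 form a cluster on chromosome 17, and neighbours within it had unlike profiles. Cyp4f39, Cyp4f17 and Cyp4f16 adjoin with 0 protein-coding genes between them; Cyp4f15 and Cyp4f13 follow after 2 and then 5 further protein-coding genes. Cyp4f16 stood at 34.5, 27.3, 28.7 and 35.3 in lung metastases and at 42.7, 29.5, 34.3 and 32.2 in the matched primary tumours (log2 change -0.13, SE 0.19, adjusted p = 0.714). Of its 50-base words 17.4% recur in other Cyp transcripts, most of them in Cyp4f37.

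In the same cluster, Cyp4f39, which makes the very long hydroxylated lipids of the skin barrier, and Cyp4f15 were almost unread in primary tumours. Cyp4f15 stood at 4.19, 0.925, 9.80 and 1.39 in the 4 metastases, against 1 read in all 4 primary tumours together (ratio of pooled counts 366, 95% exact interval 65.2 to 14497, counting error only). Without lung metastasis 3 that ratio was 232, and without primary tumour 2 there was no read to compare with. Cyp4f39 stood at 0.277, 3.24, 5.003 and 2.02 against 0, 0.197, 0 and 0.0352. Both were higher in all 4 mice without overlap, but neither reached a value of 1 in 4 libraries. With the filter loosened to 0.25, under which 7.1% of genes were called higher, the log2 change was 1.99 for Cyp4f15 (SE 0.50, adjusted p = 0.0313) and 1.58 for Cyp4f39 (SE 0.44, adjusted p = 0.0512). Both entered that filter through the metastases alone, so they had to differ there, and these values are a description only. With no filter, under which 6.9% of genes were called higher, their adjusted p by limma was 0.0322 and 0.0531. Every deposited row had a value above 1 in some library, which both genes reached in metastases alone. These p values are therefore a description too.

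Cyp4f13 and Cyp4f17 had negative changes that did not pass. Cyp4f13 stood at 11.3, 7.01, 19.5 and 8.28 in metastases against 15.7, 19.5, 21.2 and 14.6 in primary tumours, lower in the metastasis of all 4 mice (log2 change -0.67, SE 0.31, adjusted p = 0.236). Array weights brought it past the threshold (adjusted p = 0.0353), as did the fit without lung metastasis 3 (0.0351; 0.0351 to 0.423 over its 19 alternatives). Cyp4f17 ran from 0.588 to 6.76 in metastases and from 3.81 to 4.81 in primary tumours (adjusted p = 0.532). Cyp4f41-ps, a transcribed pseudogene of the cluster, ran from 0 to 2.45 and from 0 to 0.599. Differences between cluster members were not tested against each other.

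Cyp4v3, the mouse relative of the human gene whose loss causes a crystalline degeneration of the retina, had means of 37.3 ± 6.88 in metastases and 35.9 ± 3.97 in primary tumours (SD, n = 4). It stood at 45.8, 33.8, 39.6 and 30.1 in lung metastases and at 40.4, 30.8, 35.6 and 36.8 in primary tumours. The groups overlapped fully (log2 change 0.04, SE 0.19, adjusted p = 0.915). Cyp2j6, an arachidonic acid epoxygenase, stood at 9.37, 14.1, 11.4 and 21.3 in metastases against 21.5, 18.2, 19.9 and 12.4 in primary tumours. It was lower in the metastasis of mice 1 to 3 and higher in that of mouse 4 (log2 change -0.37, SE 0.29, adjusted p = 0.483). Cyp2u1, another fatty acid hydroxylase, stood at 0.554, 4.23, 0.203 and 0.252 against 2.23, 3.98, 2.39 and 1.76. Lung metastasis 2 was above every primary tumour and the other metastases were below them (log2 change -0.91, adjusted p = 0.293), and Cyp2u1 passed without it (adjusted p = 0.042; 0.042 to 0.593 over its 18 alternatives).

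Sterol members stayed at low to moderate levels in both tissues. Cyp39a1, an oxysterol hydroxylase of bile acid synthesis, stood at 16.2, 12.6, 17.7 and 10.8 in metastases against 8.11, 6.47, 9.88 and 8.88 in primary tumours. The groups did not overlap, and the log2 change of 0.71 (SE 0.25) did not pass (adjusted p = 0.123); it passed with DESeq2 (adjusted p = 0.0277; 0.0277 to 0.252 over its 19 alternatives). Cyp27a1, the mitochondrial enzyme that starts the acidic bile acid pathway, ran from 3.91 to 12.1 and from 3.04 to 11.6 (adjusted p = 0.802). Cyp7b1, which acts on its products, ran from 4.53 to 15.8 and from 5.35 to 10.8 (adjusted p = 0.937). Cyp8b1, which sets the balance of bile acids in liver, had 0 reads in all primary tumours against 0.237, 0.676, 1.69 and 1.13 in metastases. That is at least 8.41-fold higher against a floor of 3 reads per library, from 77 reads in all.

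Hormone, vitamin D and retinoid members reached at most 7.20 in any library. Cyp11a1, which makes the precursor of all steroid hormones, stood at 5.02, 1.07, 2.37 and 0 in lung metastases and 0, 0.0394, 0.944 and 0.387 in primary tumours, and was too low for the test. Cyp24a1, which inactivates vitamin D, stood at 7.20, 1.67, 0 and 2.18 against 1.91, 0.316, 6.68 and 0.881 (log2 change 0.08, SE 0.68, adjusted p = 0.955). Cyp27b1, which activates it, ran from 0 to 1.67 and from 0 to 1.97 (adjusted p = 0.967), and Cyp26a1, which degrades retinoic acid, from 0 to 2.18 and from 0.169 to 1.19 (adjusted p = 0.68). All of these except Cyp11a1 were listed at 0 in lung metastasis 3, and Cyp27b1 also in primary tumour 3, which are the shallowest and the deepest library. One read was worth 0.0676 in lung metastasis 3.

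Cyp20a1, an orphan enzyme with no settled substrate, was the only member whose primary tumours all lay above its metastases. It stood at 42.6, 46.4, 24.0 and 44.1 in lung metastases against 51.3, 55.7, 49.9 and 60.4 in primary tumours, lower in the metastasis of all 4 mice. The log2 change of -0.50 (SE 0.22) did not pass (adjusted p = 0.212). Over all tested genes 7.56% had groups apart in this direction, beside 1 of 21 tested P450 genes. In the other direction the groups did not overlap for 6 of 21 tested members, against 10.4% of tested genes, and for 10 of all 28, against 10.7% of all genes in the table. Cyp2b10 was 1 of the 6, and its gap between groups followed from the filter. Among the 10, Cyp2a5, Cyp4f15, Cyp4f39 and Cyp8b1 had values above 1 in metastases alone. Every deposited row had such a value, so their highest library had to be a metastasis. The count of 10 is therefore a description only.

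Summed over the 28 genes, normalised read counts were 517, 433, 1079 and 336 in lung metastases 1 to 4 and 237, 369, 238 and 236 in primary tumours. Primary tumour 2, with its high Cyp1b1, lay above lung metastasis 4, so the sums overlapped. The 4 genes called higher made up 46.6%, 47.4%, 76.9% and 38.5% of the sum in the metastases and 2.77% to 6.22% in primary tumours. They were picked by their call in these same libraries, so a larger share in metastases followed from the choice. The other 24 genes summed to 240 ± 29.8 in metastases and 258 ± 58.2 in primary tumours (SD, n = 4). All 28 genes together took 0.0327% to 0.103% of the reads of the 15465 genes in metastases and 0.0233% to 0.0371% in primary tumours.

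**Figure D4:**
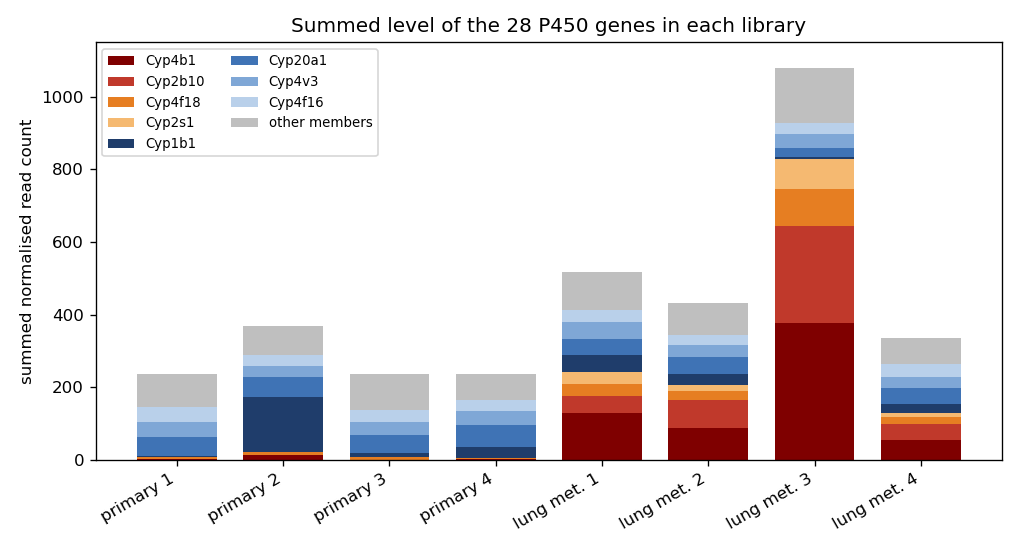
Bars give the summed normalised read count of the 28 P450 genes in each library, split by the 8 largest contributors. Red and orange shades, the 4 genes called higher, fill 38.5% to 76.9% of the bar in lung metastases and at most 6.22% in primary tumours, where Cyp1b1 fills 40.7% of primary tumour 2.

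The order of the members changed between tissues when levels were divided by exon length (values per kilobase, exon lengths from GENCODE M21). In primary tumours Cyp20a1 was first at 24.4 ± 2.15 per kilobase, followed by Cyp4f16 (15.5 ± 2.55), Cyp4f13 (10.1 ± 1.78), Cyp4v3 (9.42 ± 1.04) and Cyp1b1 (9.35 ± 13.2). The last 3 did not differ beyond their spread. In lung metastases Cyp4b1 led at 85.7 ± 77.8, then came Cyp2b10 (56.1 ± 54.7), Cyp4f18 (26.8 ± 22.3), Cyp20a1 (17.7 ± 4.64) and Cyp4f16 (14.0 ± 1.81). The spreads of adjacent genes overlapped, but they are spreads between libraries, and the genes were read in the same libraries. Within every metastasis Cyp4b1 stood above Cyp2b10, and Cyp2b10 above Cyp4f18. The order of Cyp4f18, Cyp20a1 and Cyp4f16 changed between metastases. Cyp2b10 moved from rank 26 of 28 in primary tumours to rank 2.

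Across the metastases the 4 genes that rose ranked the libraries alike. All 4 were highest in lung metastasis 3 and lowest in lung metastasis 4, as were 553 of the 1005 genes called higher (55%) and 23.5% of all tested genes. Cyp4b1, Cyp2s1 and Cyp4f18 followed the full order 3, 1, 2, 4, which 34% of the genes called higher shared, whereas Cyp2b10 placed metastasis 2 above 1. The endothelial marker sum had the order 3, 1, 2, 4, at 2532, 1070.5, 806 and 648, as Cyp4b1, Cyp2s1 and Cyp4f18 did. Alveolar type 2 marker sums had the order of Cyp2b10, as did alveolar type 1 sums, at 12676, 7350, 5654 and 4053 in metastases 3, 2, 1 and 4 for type 2. Club cell sums had another order, at 21281, 13642, 3211 and 2209 in metastases 3, 1, 4 and 2. Neutrophil sums, at 28976, 13416, 8931 and 7520, also put metastasis 4 above 2. Ciliated cell markers (4 of 6 tested called higher; 45.8 to 228 against 12.4 to 16.6), alveolar type 1 markers (6 of 7; 836 to 2862 against 76.8 to 253) and endothelial markers (5 of 9; 648 to 2532 against 240 to 817) were highest in metastasis 3 too, as were erythroid markers (5 of 5; 1970 to 9639 against 51.1 to 167). By contrast, fibroblast (1365), macrophage (1075) and carcinoma epithelium (793) sums in metastasis 3 were the lowest of the metastases. Tekt1 was the 1 marker among the lung epithelial lists at 0 in all primary tumours, while Sftpc stood at 1.03 to 1.89 there. The share of lung tissue in the P450 results was not tested.

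**Figure D5:**
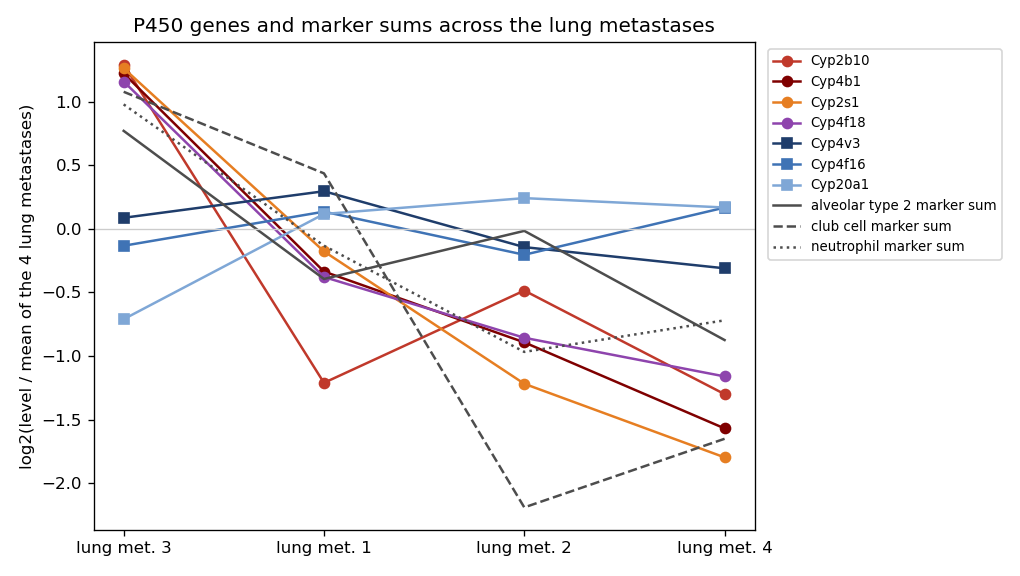
Each line gives log2 of a level divided by its mean over the 4 lung metastases, which are arranged by their summed P450 level. The 4 genes called higher and the marker sums were highest in lung metastasis 3, whereas Cyp4v3, Cyp4f16 and Cyp20a1 were not.

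Partner genes of P450 metabolism were taken from lists chosen by function, and 12 of 48 tested were called higher and 0 lower in lung metastases (7.18% and 1.96% over all genes). By edgeR 0 were lower and by DESeq2 1; limma had 1 with a negative change at an unadjusted p under 0.05. Without lung metastasis 1 the number called higher was 7. Among electron donors, 1 of 11 rose. This was Cyb5, cytochrome b5, at 80.6, 83.1, 109 and 80.7 in metastases against 36.8, 37.2, 32.7 and 43.1 in the matched primary tumours (log2 change 1.21, SE 0.17, adjusted p = 0.00146). Por, a donor for P450 enzymes of the endoplasmic reticulum, stood at 132, 97.1, 240 and 99.0 against 79.5, 95.8, 92.8 and 75.6, without passing (adjusted p = 0.199). The b5 reductase genes Cyb5r4 (adjusted p = 0.0717) and Cyb5r3 (0.0814) did not pass either.

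Of 15 tested genes for other oxidising and conjugating enzymes 9 rose, beside 7.18% of all genes tested. The flavin monooxygenase Fmo2, abundant in lung, stood at 121, 119, 547 and 57.2 in metastases against 1.51, 5.72, 2.70 and 1.37 in the primary tumours of those mice (log2 change 5.40, SE 0.60, adjusted p = 0.000457), and Fmo1 at 66.5 ± 60.9 against 1.34 ± 0.793. The carboxylesterase gene Ces1d stood at 155 ± 128 against 1.20 ± 1.78 and the aldehyde oxidase gene Aox3 at 35.9 ± 38.7 against 0.0297 ± 0.0378. The summed level of this list was 215 to 1385 in metastases and 80.2 to 108 in primary tumours, with the order 3, 1, 2, 4 of Cyp4b1.

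Genes of haem synthesis and breakdown and the receptors that induce P450 genes gave 1 call among 20 genes, beside 9.13% of all genes tested. The haem oxygenase genes Hmox1 and Hmox2 were counted with the haem genes. Of 10 haem genes 0 were called by limma, with 2 at an unadjusted p under 0.05, while edgeR called 0 and DESeq2 1; Alas1, the rate-limiting enzyme of haem synthesis, was nearest, at 92.8, 72.1, 201 and 48.8 in metastases against 31.3, 26.03, 41.4 and 45.4 (log2 change 1.33, SE 0.38, adjusted p = 0.0526). Of 10 receptor and partner genes 1 rose, the oxysterol receptor gene Nr1h3 (19.1 ± 8.13 against 5.94 ± 2.30, adjusted p = 0.0246). Ahr, the aryl hydrocarbon receptor, stood at 74.2, 68.6, 59.8 and 67.7 in metastases against 71.9, 129, 107 and 130 in primary tumours, a log2 change of -0.66 (SE 0.20) that did not pass (adjusted p = 0.077).

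The P450-fold enzymes without a Cyp symbol, which make prostanoids, did not move together. Ptgis, prostacyclin synthase, rose, at 56.3, 130, 78.6 and 130 in metastases against 5.56, 0.552, 4.65 and 1.66 in the primary tumours of the same mice (log2 change 4.74, SE 0.47, adjusted p = 0.000214). In contrast to the Cyp genes that rose, it was not highest in lung metastasis 3. Tbxas1, thromboxane synthase, stood at 30.5, 46.2, 21.0 and 38.4 against 50.4, 17.8, 64.5 and 34.7 (adjusted p = 0.785).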

How the data were processed

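The submitters' processing notes name the build mm9; for the aligner, counter and annotation, the sources used here state nothing: they are not given. The authors deposited a table of signal values, in which gene read counts are divided by a scaled library size; the column totals of the 8 breast cancer libraries ran from 962401 to 1044330. All values were whole multiples of 1 read within 0.05 reads (100%), which recovered the reads. The 12 pancreatic columns were left out because they do not follow the gene column. All 28 member identifiers matched their symbols in GENCODE M21. Every row had a value above 1 in some library (lowest row maximum 1.01), so less abundant P450 genes were not analysed here.

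Genes reaching 1 or more in 4 or more libraries were fitted with limma 3.58.1 (intensity trend) on log2(value + 1), which understates changes of low genes. Alternatives were pseudocounts of 0.1 and 5, 3 other filters, 2 other scalings, array weights, the mouse as a block, edgeR 4.0.16 and DESeq2 1.42.0 on recovered reads, and leaving out each library. Replicate numbers pair animals, since sample titles name the mouse; deviations of same-mouse libraries correlated at -0.15 to 0.1. Named were all called members, the 8 most abundant and the 4 with the smallest p of the rest, and the leading member of each role; of the partner lists, up to 4 by p; the remaining members were named after their values were seen. Members and lists were chosen with earlier results of these data known.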

Additional observations from a re-analysis of the deposited data

Results flagged for a closer look

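In 3 of the 30 groups of 4 libraries examined (15 named members, in each tissue) the highest library lay far from the rest on the unlogged scale. A rate of about 1 in 20 by chance holds for normally distributed values and independent groups. The groups share libraries, and the values were not logged, so whether 3 exceeds chance was not tested. Cyp2b10 was 267 in lung metastasis 3, with 77.8 as the next value. Cyp2d22 was 47.1 in the same library, with 9.71 as the next. Cyp4b1 was 14.6 in primary tumour 2, with 3.02 as the next.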

How the results depend on the processing

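The calls of Cyp2b10, Cyp2s1, Cyp4b1 and Cyp4f18 held under each of the 19 alternatives, with 4 to 6 members called higher; without 1 library each the number was 4 to 5. The number of members called lower was 1 in place of 0 with array weights (Cyp4f13), and 0 to 1 when 1 library was left out (Cyp2u1 without lung metastasis 2, Cyp4f13 without lung metastasis 3, Cyp2e1 without primary tumour 4). Genes called higher numbered 644 with the stricter filter and 1536 with array weights, and 627 to 1237 when 1 library was left out, lowest without primary tumour 4. Genes called lower numbered 747 with array weights, 176 with the mouse as a replicate block, 517 with DESeq2, and 84 to 431 when 1 library was left out. Array weights moved the share of higher calls from 78.6% to 67.3%, and DESeq2 left it at 74%. edgeR on the recovered reads called 843 higher and 207 lower. Partner genes called higher were 7 to 13 when 1 library was left out; those called lower were 2 with array weights (Ahr and Rxra), 1 with DESeq2, and 0 to 1 when 1 library was left out. With the mouse as a replicate block Cyp2d22 was called in addition to the 4 and 0 members were called lower; no other call of a member changed. The sign turned for members without a call: Cyp1b1 was -0.0737 with a pseudocount of 5, -0.82 with edgeR, -0.81 with DESeq2 and -0.74 to 0.93 without 1 library; Cyp24a1 was -0.23 with a pseudocount of 0.1 and -0.42 to 0.59 without 1 library; Cyp4v3 was -0.0583 to 0.14 without 1 library. The causes of these shifts were not tested, apart from the stricter filter testing 11440 genes. Depth limits the members at 0 or a few reads, since 3 reads correspond to values of 0.101 to 0.203.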
